A study of Homo sapiens with 9 samples.

Results

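CYP1A1 and the genes of the aryl hydrocarbon receptor around it were followed in the established human hepatoma line HepG2 treated with GW7647, a compound that activates the lipid-sensing nuclear receptor PPARα. The 6 genes were CYP1A1, CYP1A2, CYP1B1, AHR, ARNT and TIPARP, and every probe set that the platform annotation pairs with 1 of these symbols was taken. This gave 16 of the 54675 probe sets of the array, of which 1 reads CYP1A1, 2 CYP1A2, 4 CYP1B1, 1 AHR, 7 ARNT and 1 TIPARP. The set was chosen by the CYP1A1 value at 6 h in these same arrays. The values of the 16 probe sets at 6 h against vehicle are therefore given as a description with no test.

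There were 9 expression arrays, 3 from cells after 24 h with GW7647 at 100 nM, 3 after 6 h at that dose and 3 from cells that received DMSO as vehicle. The labels name no engineered change in the line, and all cells grew in medium with serum and without phenol red. Both times were set against the same vehicle arrays, whose hours of incubation the sources used here do not state, so that ligand exposure cannot be told apart from time in culture. The labels do not say that replicates were separate cultures, so every p measures only the spread between these arrays, which may be technical. The series belongs to a survey of promoters bound by PPARα, and its arrays ask which transcripts differ after the agonist.

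The aryl hydrocarbon receptor, AHR, is a bHLH-PAS transcription factor that waits in the cytosol with HSP90 and its cochaperone p23 until a ligand binds it. It then enters the nucleus, pairs with ARNT and binds xenobiotic response elements, whose core is GCGTG, near CYP1A1, CYP1A2, CYP1B1, TIPARP and AHRR. CYP1A1 is the enzyme most often read as a sign of AHR activity; it oxidises polycyclic aromatic compounds, and in the liver it works beside CYP1A2, which oxidises caffeine and aromatic amines. TIPARP and AHRR both restrain the receptor, TIPARP by mono-ADP-ribosylation. PPARα binds DNA with RXR at direct repeats of AGGTCA spaced by 1 base, and binding of it upstream of human CYP1A1 has been described.

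Promoter windows of 250 bases that end at the base before an annotated start were read from RefSeq on GRCh38.p14, and 5 of the 6 genes matched, CYP1B1 being named only. The windows shown are those of CYP1A1, of its neighbour CYP1A2 and of the first start of TIPARP. These 3 genes were picked as classical AHR targets, and only CYP1A1 among them shows a large change below. The windows lie at chr15:74725529-74725778 on the minus strand, chr15:74748595-74748844 on the plus strand and chr3:156674340-156674589 on the plus strand. Capitals mark the core GCGTG or, on the other strand, CACGC.
CYP1A1: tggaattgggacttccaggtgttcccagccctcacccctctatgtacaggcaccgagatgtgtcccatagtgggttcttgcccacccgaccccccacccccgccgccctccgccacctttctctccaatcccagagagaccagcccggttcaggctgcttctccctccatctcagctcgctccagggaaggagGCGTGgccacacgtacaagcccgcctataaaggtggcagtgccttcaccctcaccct
CYP1A2: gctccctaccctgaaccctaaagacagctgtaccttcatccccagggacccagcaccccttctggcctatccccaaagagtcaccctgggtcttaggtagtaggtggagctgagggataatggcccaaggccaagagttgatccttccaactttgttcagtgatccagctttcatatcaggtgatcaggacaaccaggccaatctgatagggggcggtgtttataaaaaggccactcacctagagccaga
TIPARP: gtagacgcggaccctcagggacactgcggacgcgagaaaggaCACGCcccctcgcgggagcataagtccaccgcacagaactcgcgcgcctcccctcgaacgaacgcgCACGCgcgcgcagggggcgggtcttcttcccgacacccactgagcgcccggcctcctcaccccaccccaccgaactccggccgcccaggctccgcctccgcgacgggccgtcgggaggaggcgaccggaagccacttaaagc
The CYP1A1 window holds 1 core at bases -57 to -53 before the start and the TATA box letters TATAAA at -32 to -27. The CYP1A2 window holds 0 cores, and TATAAA at -29 to -24, with another match at -31 to -26 on the opposite strand. The TIPARP window holds 2 cores, both on the opposite strand, and no TATAAA. On either strand, GCGTG is in 32.2% of the 35116 promoter windows of the same length and TATAAA in 10.7%. The longer TNGCGTG (4.52% of windows, each also a match to the core), AGGTCA (12.1%) and the spaced repeat AGGTCANAGGTCA (0.0171%, each also a match to AGGTCA) are not in any of the 7 windows of these 5 genes. A match is a run of letters and not a bound site, and elements farther upstream lie outside these windows.

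The median log2 signals of the arrays were 5.61 to 5.64 at 24 h, 5.65 to 5.67 at 6 h and 5.63 to 5.66 in vehicle. Correlations across probe sets were 0.996 to 0.998 for the 9 pairs of the same group and 0.995 to 0.997 for the 27 pairs of different groups. The 3′ minus 5′ signal of GAPDH, a sign of RNA integrity, was 0.018 to 0.022 at 24 h, 0.045 to 0.070 at 6 h and -0.0082 to 0.076 in vehicle, so that the treated groups do not overlap. For actin it was 0.25 to 0.40, 0.27 to 0.30 and 0.15 to 0.36 in the same order. The second vehicle array had the lowest value of all 9 arrays for both. The 10 hepatocyte markers measured, of 12 listed, had a mean log2 signal of 13.47 to 13.50 at 24 h, 13.56 to 13.58 at 6 h and 13.60 to 13.64 in vehicle. The 11 markers measured of blood, endothelial and stromal cells, of 12 listed, averaged 5.71 to 5.82 at 24 h, 5.74 to 5.80 at 6 h and 5.77 to 5.80 in vehicle, and their summed linear signal was 1160 to 1221, 1104 to 1165 and 1161 to 1228 in the same order. RMA values have no 0, and of these 11 the probe sets of CD14, PECAM1, COL1A1, MARCO, DES and DCN averaged above the array medians. None of the 11 was called at 24 h against vehicle, and at 6 h CD14, a monocyte receptor that hepatocytes also make, fell by 0.29 on the log2 scale (limma adjusted p = 0.0387), a call lost in 12 of 18 alternatives, among them leaving out any 1 of the 9 arrays.

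CYP1A1 stood far higher at 6 h and slightly lower at 24 h than in vehicle. Its probe set (205749_at) read 7.12, 6.98 and 6.97 on the 24 h arrays, 9.79, 9.95 and 9.67 on the 6 h arrays, and 7.51, 7.53 and 7.43 on the vehicle arrays, in log2 units. The 3 groups do not overlap, and the lowest 6 h array lies more than 2 log2 units above the highest array of either other group. The group means were 7.02 ± 0.09 at 24 h, 9.80 ± 0.14 at 6 h and 7.49 ± 0.05 in vehicle (SD, n = 3 each). Against vehicle, the 6 h mean was higher by 2.31 log2 units (SE 0.08), a 4.96-fold difference with a 95% confidence interval of 4.39 to 5.61, and only 2 of 54613 probe sets had a larger rise. Against 6 h, the 24 h mean was lower by 6.86-fold (interval 6.07 to 7.75), a log2 difference of -2.78, the largest fall of all 54613 probe sets. This difference uses the 6 h arrays on which the gene was chosen and is given with no test. Neither interval takes account of that choice.

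The comparison of 24 h with vehicle leaves the 6 h values out of the difference and was tested, although it shares the vehicle arrays. At 24 h CYP1A1 fell by 0.47 on the log2 scale (SE 0.08), which is 1.38-fold lower with a 95% confidence interval of 1.22 to 1.56, and all 3 arrays at 24 h were below all 3 vehicle arrays (limma adjusted p = 0.00761). Over all probe sets 4.39% were called in this comparison. In RNA from whole cultures, fewer cells that make a transcript and less RNA per cell cannot be told apart. The hepatocyte markers FGB, a fibrinogen chain, and TTR, the thyroxine carrier, also fell at 24 h, by 0.67 and 0.55 on the log2 scale (limma adjusted p = 2.04e-04 and 0.00257), while the other 8 measured hepatocyte markers were not called; their part in the CYP1A1 value was not tested. The smallest p that exact permutation can reach with 3 arrays a group is 0.1, so the call rests on the spread that limma shares across probe sets.

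**Figure D1:**
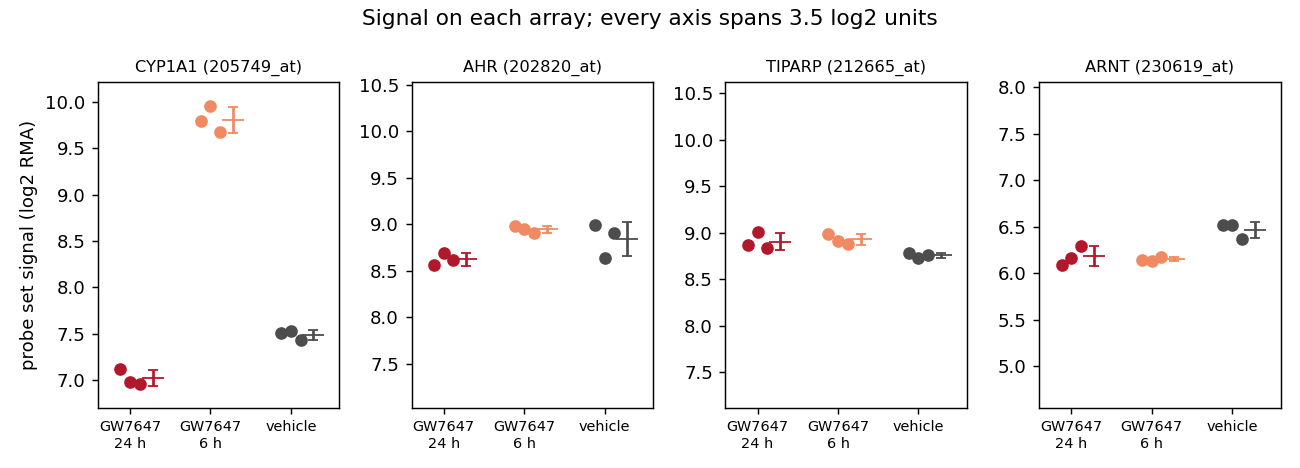
Log2 RMA signal of the probe sets of CYP1A1, AHR, TIPARP and ARNT (230619_at) on each array, for GW7647 at 24 h, GW7647 at 6 h and vehicle; points are arrays and bars are means with SD (n = 3), and every vertical axis spans the same number of log2 units. CYP1A1 averages 7.02 at 24 h, 9.80 at 6 h and 7.49 in vehicle, while the arrays of the other 3 probe sets stay within a much narrower band. Probe set 230619_at is shown because it was the only 1 of 7 for ARNT called at 24 h against vehicle. The brightest, 218222_x_at, differed there by 0.12, opposite in sign.

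CYP1A2, the closest relative of CYP1A1 and its neighbour on the chromosome, did not show the 6 h peak. Its probe set 207608_x_at read 6.61, 6.49 and 6.70 at 24 h, 6.67, 6.82 and 6.79 at 6 h, and 6.69, 6.72 and 6.83 in vehicle. Its second probe set, 207609_s_at, read 6.37, 6.26 and 6.45 at 24 h, 6.45, 6.55 and 6.54 at 6 h, and 6.45, 6.47 and 6.45 in vehicle. In both probe sets the 24 h arrays tend to the low side and every pair of groups overlaps or meets. The 6 h means differed from vehicle by 0.02 and 0.05 log2 units, with 95% intervals of -0.15 to 0.18 and -0.09 to 0.20. At 24 h the differences from vehicle were -0.14 and -0.10 (limma adjusted p = 0.371 and 0.495), and against 6 h they were -0.16 and -0.15 (adjusted p = 0.267 and 0.219). Suffixes _x_at and _s_at mark probes that can also bind related transcripts, so these values may be shared with other genes. The same holds for other probe sets with these suffixes, among them all of CYP1B1 and those read below for CXCL8 and CYP3A5.

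CYP1A1 and CYP1A2 are adjacent and run in opposite directions, with 0 protein-coding genes between them in the RefSeq table. The coding genes on the outer sides, chosen for their place after the values were seen, were EDC3, an mRNA decapping factor, and CSK, a kinase that restrains SRC. EDC3 differed from vehicle by -0.05 at 24 h and -0.04 at 6 h (limma adjusted p = 0.787 and 0.864). CSK differed by -0.10 at 24 h and -0.17 at 6 h (adjusted p = 0.521 and 0.304). Neither neighbour was called at either time.

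CYP1B1, the family member that hydroxylates oestradiol and is found mostly outside the liver, had low signal on all arrays. Its 4 probe sets read 3.18 to 4.50 at 24 h, 3.26 to 4.65 at 6 h and 3.11 to 4.53 in vehicle, all below the array medians. None was called at 24 h against vehicle, with log2 differences between -0.13 and 0.09 (limma adjusted p from 0.562 to 0.826). The highest 6 h difference was 0.24, in 202436_s_at, where 1 vehicle array at 4.01 sat below the other vehicle arrays at 4.49 and 4.53. At such signal a change in CYP1B1 could go undetected.

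AHR, the receptor itself, had a log2 signal of 8.56, 8.69 and 8.61 at 24 h, 8.98, 8.94 and 8.91 at 6 h, and 8.99, 8.64 and 8.90 in vehicle. The 24 h arrays lie below all 6 h arrays, as arrays of these times lay apart for 26.8% of all probe sets. The second vehicle array reads with the 24 h arrays while the other vehicle arrays read with the 6 h arrays. Against 6 h, AHR fell by 0.32 at 24 h (SE 0.09, limma adjusted p = 0.0473), a 1.25-fold lower signal in a comparison that called 7.66% of all probe sets. The call was lost in 10 of 17 alternative settings, where the adjusted p reached 0.148. Against vehicle the 24 h difference was -0.22 (SE 0.09, 95% interval -0.41 to -0.03, limma adjusted p = 0.217). Without the second vehicle array, which had the lowest 3′ minus 5′ signals, it was -0.32 (limma adjusted p = 0.0259). That was the only 1 of 17 alternatives with a call, and the part of RNA integrity in it was not tested. At 6 h AHR differed from vehicle by 0.10 (SE 0.09).

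ARNT, the dimer partner of AHR and of the hypoxia factors, was read by 7 probe sets that did not move as 1. Probe set 230619_at read 6.09, 6.16 and 6.30 at 24 h, 6.14, 6.14 and 6.18 at 6 h, and 6.52, 6.51 and 6.36 in vehicle, so that both treated groups lie below vehicle. It fell by 0.28 at 24 h against vehicle (SE 0.07, limma adjusted p = 0.0496), a call lost in 13 of 16 alternative settings, and at 6 h it differed from vehicle by -0.31. Probe set 218221_at had another order, with 6.82, 6.996 and 6.94 at 24 h, 6.65, 6.70 and 6.77 at 6 h, and 6.99, 6.85 and 6.83 in vehicle. There the 6 h arrays are the low ones, and 24 h against 6 h gave 0.22 (SE 0.07, adjusted p = 0.102), which passed when only probe sets above the median signal were tested (adjusted p = 0.0442).

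The brightest ARNT probe set, 218222_x_at, read 8.28, 8.16 and 8.16 at 24 h, 8.16, 8.13 and 8.16 at 6 h, and 8.08, 8.19 and 7.97 in vehicle, with overlapping groups. Its 24 h difference from vehicle was 0.12, opposite in sign to that of 230619_at (limma adjusted p = 0.455). Of the other 4 ARNT probe sets, 210828_s_at and 231016_s_at read 6.29 to 6.78 over the 9 arrays, and 233724_at and 233714_at read 3.10 to 3.99, below the array medians. None of these 4 was called at 24 h against vehicle or against 6 h. The probe sets of ARNT therefore gave no common direction.

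TIPARP, the ADP-ribosyltransferase that AHR induces and that then represses it, was higher than vehicle on every treated array by a small amount. It read 8.87, 9.004 and 8.84 at 24 h, 8.99, 8.91 and 8.88 at 6 h, and 8.78, 8.73 and 8.76 in vehicle, where the treated groups overlap each other and neither overlaps vehicle. Arrays lay apart from vehicle for 18.6% of all probe sets at 24 h and 17.1% at 6 h. The 24 h difference from vehicle was 0.15 (SE 0.06, 95% interval 0.0062 to 0.29) and did not pass the test (limma adjusted p = 0.271). The 6 h difference was 0.17, against 2.31 for CYP1A1. Between 24 h and 6 h TIPARP differed by -0.02 (adjusted p = 0.899, 95% interval -0.16 to 0.12).

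**Figure D2:**
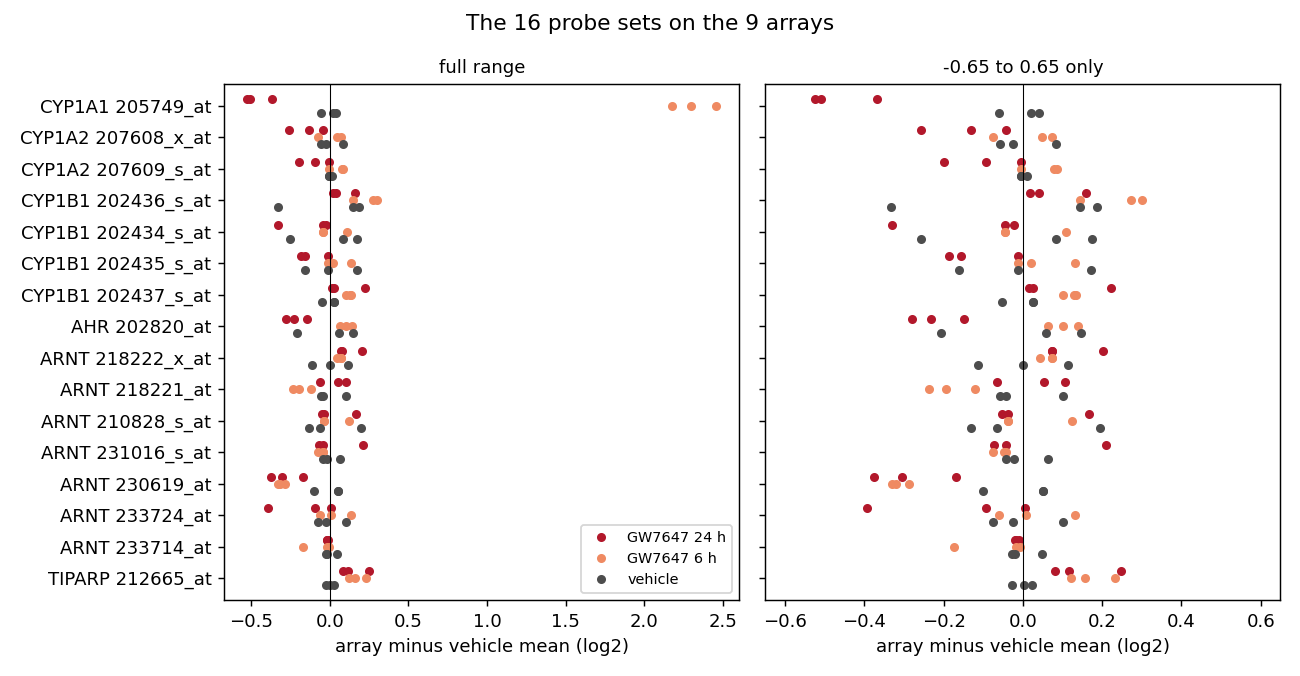
The 16 probe sets as the difference of each array from the mean of the vehicle arrays, in log2 units, with GW7647 at 24 h, GW7647 at 6 h and vehicle in rows from top to bottom within each probe set; the right panel shows the central range of the same values. The 6 h points of CYP1A1 lie beyond 2 log2 units, and the changes of the other 15 probe sets at 6 h run from -0.31 to 0.24.

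Counted together, 2 of the 16 probe sets fell at 24 h against vehicle, CYP1A1 and ARNT 230619_at, 0 rose and 14 did not pass, beside 4.39% of all probe sets called. In that comparison the arrays of 3 of the 16 lay apart, 1 above and 2 below vehicle, and 18.6% of all probe sets had arrays that lay apart. At 24 h against 6 h, 1 of the 15 probe sets other than CYP1A1 fell, that of AHR, and 0 rose, beside 7.66% of all. At 6 h against vehicle, 1.47% of all probe sets were called and 17.1% had arrays that lay apart. Calls among the members are not counted there, since the set was chosen on that comparison. The median log2 difference over the 16 was -0.06 at 24 h and 0.04 at 6 h against vehicle, and over all 54613 probe sets it was -0.0047 and 0.0075.

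Genes were ranked by how near their profile over the 9 arrays came to that of CYP1A1, with each profile set to 0 at its vehicle mean. The nearest was CXCL8, the neutrophil chemokine interleukin 8, with a root mean square difference of 0.554 log2 units, where a flat profile would differ from CYP1A1 by 1.36. Next came GPCPD1, a phosphodiesterase of glycerophosphocholine, at 0.635, then MAB21L3 at 0.806, ARRDC3, an arrestin-like adaptor, at 0.816, and SKIL, a repressor of SMAD signalling, at 0.828. CXCL8 read 5.38, 5.56 and 5.11 at 24 h, 6.98, 7.07 and 6.96 at 6 h, and 5.53, 5.64 and 5.64 in vehicle. Its 6 h arrays stand well above the rest, and its highest 24 h array overlaps vehicle.

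Of these 5 genes, the 24 h difference from vehicle was -0.25 for CXCL8, 0.22 for GPCPD1, -0.05 for MAB21L3, 0.03 for ARRDC3 and 0.43 for SKIL, against -0.47 for CYP1A1. Their 6 h differences were 1.40, 1.49, 1.06, 1.02 and 1.24 in the same order, against 2.31 for CYP1A1. All 5 are smaller at 6 h than CYP1A1, and none reaches its depth below vehicle at 24 h. The ranking used these same 9 arrays, so their height at 6 h follows from how they were picked. Few probe sets rose more than CYP1A1 at 6 h, so smaller rises were also likely from the start. The genes nearest to TIPARP were CDYL, a chromatin corepressor, CETN2, a centrin, TSR1, a factor of ribosome assembly, WTAP, of the RNA methyltransferase complex, and CYP20A1, an orphan P450, at 0.0350 to 0.0412 against 0.139 for a flat profile. Such small differences are of the size of the spread between arrays.

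**Figure D3:**
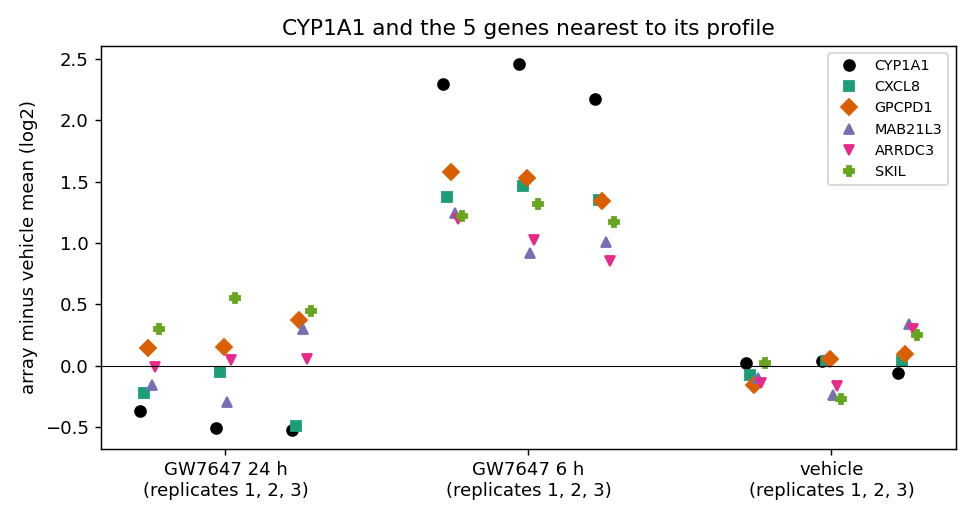
Difference of each array from the vehicle mean, in log2 units, for CYP1A1 and the 5 genes of nearest profile, with replicates 1, 2 and 3 of GW7647 at 24 h, GW7647 at 6 h and vehicle from left to right. All 6 genes stand highest at 6 h, with mean differences of 1.02 to 2.31, and the 5 were picked on these same arrays for likeness to CYP1A1.

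The AHR target list held genes known to be regulated by the receptor in liver and other tissues. At 6 h against vehicle, 0 of 19 measured genes of the AHR target list were called, beside 2.07% of all 19775 genes, and the median log2 difference was 0.03 against 0.0039 over all genes. At 24 h, 2 of the 19 rose and 0 fell, beside 5.62% of all genes, with a median of 0.00089 against 0.0034. The 2 were NEDD9, a docking protein of focal adhesions, and STC2, a secreted glycoprotein. NEDD9 averaged 10.36 ± 0.16 at 24 h and 9.65 ± 0.21 in vehicle (SD, n = 3 each), a log2 change of 0.71 (limma adjusted p = 0.00732). Another of its 5 probe sets was also called at 24 h against vehicle, with 0.60 (adjusted p = 0.00158). The rest were dimmer and not called, with 0.39, 0.18 and -0.11 (adjusted p = 0.0600, 0.397 and 0.575). STC2 averaged 8.69 ± 0.07 at 24 h and 8.20 ± 0.07 in vehicle, a change of 0.49 (adjusted p = 0.0317), and its other probe set gave 1.08 (adjusted p = 5.51e-05). At 6 h the same probe sets of STC2 differed in sign, with -0.25 and 0.38 against vehicle, and neither was called (adjusted p = 0.379 and 0.0578). At 24 h against 6 h, 3 of the 19 rose and 1 fell, beside 10.4% of all genes.

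Read by the probe set of highest mean, the other 17 genes of that list differed from vehicle by -0.22 to 0.27 log2 units at 24 h, and all 19 by -0.31 to 0.19 at 6 h. Of them 6 classical members are named here, a choice made after their values were seen. NQO1, a quinone reductase, differed from vehicle by 0.08 at 24 h and -0.03 at 6 h (limma adjusted p = 0.565 and 0.895). ALDH3A1, an aldehyde dehydrogenase, differed by 0.00089 at 24 h and 0.13 at 6 h (adjusted p = 0.997 and 0.594). AHRR, the AHR repressor, differed by 0.05 and 0.04 (adjusted p = 0.851 and 0.913), from a signal below the array medians. CYP2S1, an extrahepatic P450, differed by 0.05 and 0.03 (adjusted p = 0.740 and 0.902). UGT1A1, which conjugates bilirubin, had the lowest 6 h difference of the list, also from a signal below the array medians. It differed by -0.12 at 24 h and -0.31 at 6 h (adjusted p = 0.716 and 0.357), and its 6 h arrays spread widely, at 3.95, 4.22 and 4.56. NFE2L2, the master factor of the antioxidant response, differed by -0.16 and -0.03 (adjusted p = 0.188 and 0.907). None of these 6 was called in either comparison.

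Among chaperones, cofactors and partners of AHR, 0 of 13 measured genes were called at 24 h against vehicle and 1 at 6 h, beside 5.62% and 2.07% of all genes. That gene was RELB, an NF-κB subunit that can pair with AHR. RELB read 7.03, 7.07 and 7.21 at 24 h, 7.63, 7.53 and 7.62 at 6 h, and 6.99, 7.21 and 7.20 in vehicle. Its 6 h arrays stand above all others, as those of CYP1A1 do. RELB rose by 0.46 at 6 h (limma adjusted p = 0.0153), was 0.50 lower at 24 h than at 6 h (log2 change -0.50, adjusted p = 0.00287), and at 24 h differed from vehicle by -0.03 (adjusted p = 0.888).

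Of 13 other bHLH-PAS factors, the protein family of AHR and ARNT, 0 were called against vehicle at either time, where 5.62% of all genes were called at 24 h and 2.07% at 6 h. The brightest were HIF1A and EPAS1, the oxygen-regulated partners of ARNT. HIF1A averaged 12.24 ± 0.02 at 24 h, 12.48 ± 0.01 at 6 h and 12.28 ± 0.08 in vehicle, and its 24 h signal was lower than at 6 h by a log2 change of -0.24 (limma adjusted p = 0.0341). EPAS1 averaged 11.76 ± 0.06, 11.96 ± 0.03 and 11.77 ± 0.06 in the same order, and 24 h against 6 h gave -0.19 (adjusted p = 0.0834). At 24 h against 6 h, 1 of the 13 rose and 2 fell, beside 10.4% of all genes. These were the clock factor BMAL1 with a change of 0.44 (adjusted p = 0.00158), its partner CLOCK with -0.33 (adjusted p = 0.0305) and HIF1A; BMAL1 and CLOCK are named after their values were seen. The other probe set of BMAL1 and the other 3 of CLOCK were not called.

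Among other P450 enzymes, 0 of 16 measured genes of families 2 and 3 were called at 6 h, beside 2.07% of all genes. At 24 h 2 of the 16 fell and 0 rose, beside 5.62% of all genes: CYP3A5, a drug-metabolising enzyme, and CYP2J2, an epoxygenase of arachidonic acid. CYP3A5 read 5.36, 5.63 and 5.67 at 24 h, 5.61, 5.92 and 5.67 at 6 h, and 6.40, 6.13 and 5.86 in vehicle. The 24 h arrays of CYP3A5 lie below those of vehicle, whose own spread is wide, and the change was -0.58 (SE 0.14, limma adjusted p = 0.0373), while its other 3 probe sets were lower by less and not called. CYP2J2 changed by -0.26 (adjusted p = 0.0298). CYP3A4, the main hepatic P450 and chosen here after its value was seen, differed from vehicle by 0.00018 at 24 h and 0.07 at 6 h (adjusted p = 0.999 and 0.701).

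Genes that supply P450 enzymes with electrons and haem gave 3 rises and 0 falls of 15 at 24 h, beside 5.62% of all genes called, and 2 rises and 0 falls at 6 h, beside 2.07%. ALAS1, the rate-limiting enzyme of haem synthesis, read 9.02, 8.996 and 8.99 at 24 h, 9.11, 8.98 and 8.98 at 6 h, and 8.64, 8.70 and 8.75 in vehicle. All treated arrays of ALAS1 lie above all vehicle arrays, with changes of 0.30 at 24 h and 0.32 at 6 h (limma adjusted p = 0.0195 and 0.0303). HMOX1, which breaks haem down and so runs against the list's name, changed by 0.41 at 24 h and 0.40 at 6 h (adjusted p = 0.0217 and 0.0481). PPOX, a late enzyme of haem synthesis, changed by 0.39 at 24 h (adjusted p = 0.0115). The other, dimmer probe sets of PPOX gave 0.0020 and 0.16 (adjusted p = 0.995 and 0.332), and the mean of all 3 gave 0.18 with no call (adjusted p = 0.0934).

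Tryptophan breakdown, the source of kynurenine and related AHR ligands, gave 3 rises and 0 falls of 12 at 24 h, beside 5.62% of all genes called, and 0 calls at 6 h, beside 2.07%. The 3 were AFMID, which makes kynurenine, HAAO, which leads on to quinolinate, and QPRT, which uses it up. Their changes were 0.40, 0.33 and 0.35 (limma adjusted p = 0.0464, 0.0214 and 0.0116), while the list's median at 24 h was -0.03. A second bright probe set of QPRT gave 0.10 at 24 h (adjusted p = 0.498). In the PARP family, to which TIPARP belongs, 0 of 20 genes rose and 1 fell at 24 h, which is near the 5.62% called among all genes, and 0 were called at 6 h, beside 2.07%. PARP14, a mono-ADP-ribosyltransferase of interferon responses, changed by -0.46 at 24 h (adjusted p = 0.00582), and its dimmer second probe set, at 0.12, was not called. Leaving out 1 array ended the calls of STC2, CYP3A5, CYP2J2, ALAS1, HMOX1, AFMID, HAAO and RELB, but not those of NEDD9, PPOX, QPRT and PARP14. These lists overlap in part, and AHRR stands in 3 of them.

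**Figure D4:**
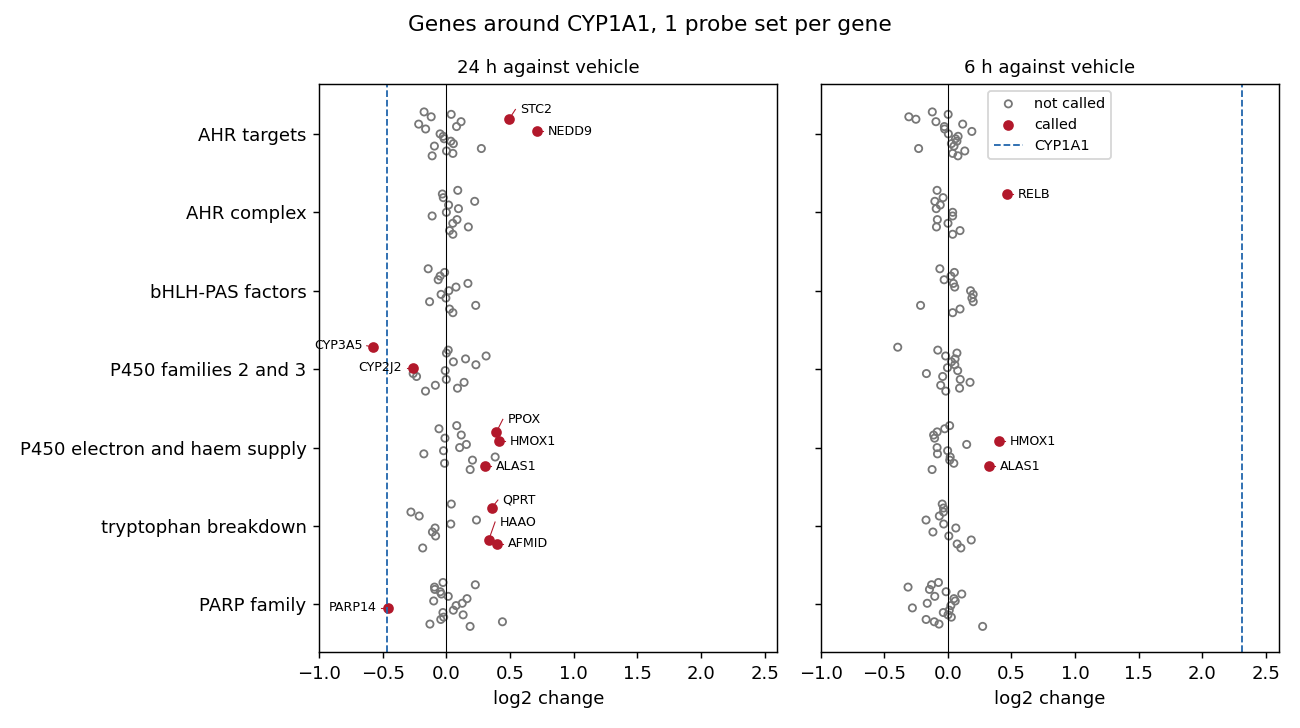
Log2 change of each measured gene of 7 lists around CYP1A1, read by its probe set of highest mean signal, at 24 h against vehicle on the left and at 6 h against vehicle on the right; filled points passed limma's test at an adjusted p under 0.05, and the dashed line is CYP1A1. At 6 h the filled points are RELB, HMOX1 and ALAS1, all below 0.5, and the dashed line is at 2.31.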

How the data were processed

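The starting point was the deposited log2 signal of each probe set on 9 arrays, 3 per group, made with RMA per the submitters' processing notes, which give no version. Values lie between 2.66 and 15.02, none is missing, and they were used unchanged. Of 54675 probe sets, 62 controls were left out. Annotation gave 41091 of the rest 1 symbol, 1801 several and 11721 none, and 0 symbols needed an update.

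Group means over all 9 arrays were fitted with limma 3.58.1 (lmFit, eBayes) (R 4.3.3; tables were read by data.table, version 1.17.8), tested two-sided and adjusted by Benjamini-Hochberg over 54613 probe sets, with a call at an adjusted p under 0.05. The fit was tested on simulated data. Listed genes were read by their probe set of highest mean.

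The members and lists were chosen with earlier results of these data known. The text names every member, up to 4 called genes of a list by size of change or else its 2 brightest, and the 5 nearest profiles to CYP1A1 and to TIPARP. Arrays of different groups with the same replicate number had deviations from their group means that correlated at -0.14 to 0.09, so numbers were not taken as pairs. The alternatives tried are given with their effect in the closing section.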

Additional observations from a re-analysis of the deposited data

Results flagged for a closer look

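The difference of CYP1A1 between both exposure times was -2.78 log2 units, 24 h minus 6 h. It stands out because all 3 arrays at 6 h lie above and all 3 arrays at 24 h lie below the vehicle arrays. That difference was not tested, since the gene was chosen on its 6 h arrays. The difference of AHR between the times was -0.32 log2 units, 24 h minus 6 h, and passed limma's test of the difference itself (adjusted p = 0.0473). All 24 h arrays lay below all 6 h arrays. Of all probe sets, 7.66% were called in that comparison and 26.8% had arrays that lay apart. The AHR call was lost in 10 of 17 alternatives. Groups of 3 arrays were not screened for outlying arrays.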

How the results depend on the processing

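CYP1A1 kept its direction under all 17 alternatives and, at 24 h against vehicle, its call. Its log2 difference ranged from -0.52 to -0.44 at 24 h against vehicle (limma adjusted p from 0.00195 to 0.0372), from -2.85 to -2.71 at 24 h against 6 h, and from 2.24 to 2.38 at 6 h against vehicle. Of the 16 probe sets, 2 were called at 24 h against vehicle. The count was 1 under the replicate block, only the compared groups, an intensity trend with robust prior or quantile normalization. Median centring and an adjusted p under 0.01 also gave 1. With one probe set per gene the count was 1 as well, but ARNT 230619_at was not tested there. At 24 h against 6 h, 2 became 1 under the replicate block, median centring or an adjusted p under 0.01, and 3 with probe sets above the median signal, where ARNT 218221_at rose. Leaving out 1 array gave 1 to 2 in both. The call of ARNT 230619_at was lost without vehicle array 1 or 2, any 6 h array, or 24 h array 1 or 2, and that of AHR against 6 h without vehicle array 3 or any treated array.

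Counts over all probe sets moved more. At 24 h against vehicle 2396 became 1205 with only the compared groups, 3634 with the trend, 910 at an adjusted p under 0.01, and 1369 to 2607 without 1 array, lowest without 24 h array 2. At 24 h against 6 h 4181 of 54613 became 2729 of 19775 with one probe set per gene, which is a larger share. The 4181 became 1835 at the stricter threshold and 2167 to 4956 without 1 array, lowest without 6 h array 2. At 6 h against vehicle 802 became 466 under the replicate block, 354 with only the compared groups and 1491 with the trend. It became 1552 when only the probe sets above the median signal were tested, which are fewer than 54613. The stricter threshold gave 255, and leaving out 1 array gave 275 to 640, lowest without 6 h array 2. Of list genes, NEDD9 kept its call in every alternative, while STC2 lost it in 8, CYP3A5, CYP2J2 and AFMID in 10 each, ALAS1 in 7 at 24 h and 11 at 6 h, HMOX1 in 7 and 12, HAAO in 6, RELB in 4, PPOX in 2, and QPRT and PARP14 in 1 each. No named gene changed sign with a call, and the causes of these changes were not tested. With 3 arrays per group and low signal for CYP1B1, small changes may be missed.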
